A study of Homo sapiens with 4 samples.

Results

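Chemokines and chemokine receptors were followed in 2 human liver cancer cell lines, HepG2 and Huh7, before and after sonodynamic therapy (SDT). The members were the protein-coding genes whose whole symbol is that of a CC, CXC, XC or CX3C ligand, of a CC, CXC, XC or CX3C receptor, or of an atypical chemokine receptor. This rule found 65 genes, 43 ligands and 22 receptors, among the 19951 protein-coding genes of GENCODE release 29. Group A was HepG2 before SDT, group B HepG2 after SDT, group C Huh7 before SDT and group D Huh7 after SDT, with 1 library in each of the 4 groups. In groups B and D the cells had received targeted nanobubbles that carried lonidamine (LND), together with the sensitizer hematoporphyrin monomethyl ether (HMME), and low-frequency ultrasound. Both cell lines are established cultures, so each group stands for 1 culture of 1 line, and HepG2 and Huh7 differ in origin as well as in any response. Total RNA was depleted of ribosomal RNA before sequencing.

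The tables used here name, for B vs. A and for D vs. C, the mRNAs that the authors called differentially expressed at an adjusted p-value under 0.05, sorted under Gene Ontology (GO) terms and KEGG pathways. A gene is called listed below when its identifier stood under at least 1 GO term of a comparison. Any protein-coding gene with no GO term could not be listed, yet it counts in the shares of all protein-coding genes given below. The lists hold no expression level, no direction of change and no replicate, so "listed" does not say whether a gene rose or fell, and no test between the cell lines could be made. A gene that was not listed may be unchanged, too low to be called or not expressed, and the lists do not tell these apart. Which genes are listed was chosen by the authors' calls, and the family was chosen with these lists known, so all counts below are descriptions. Each call set 1 library against 1, so it cannot separate SDT from other differences between 2 cultures. The genes next to the threshold cannot be named, since no value per gene was used here.

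Chemokines are small secreted proteins that guide the movement of leukocytes along gradients. They are grouped by the spacing of their first cysteines into CC, CXC, XC and CX3C ligands, and they act on receptors of the G protein-coupled type that signal through Gi proteins. Inflammatory chemokines are made on demand by many cells, hepatocytes and liver tumour cells included, when nuclear factor kappa B (NF-kB) or interferon signalling is switched on, whereas homeostatic chemokines are made steadily in lymphoid tissues and epithelia. Atypical receptors bind chemokines without the usual G protein signal and remove or store them.

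In HepG2, 14 of the 65 genes (21.5%) were listed, beside 23.9% of all protein-coding genes. In Huh7, 21 of 65 (32.3%) were listed, beside 21.9% of all protein-coding genes. Both lists held 7 members (10.8%), beside 11.4% of all protein-coding genes. These are 50% of the members listed in HepG2 and 33.3% of those listed in Huh7, while over all protein-coding genes the shared part was 47.7% of the HepG2 list and 52.2% of the Huh7 list. The 7 shared genes were CCL2, CCL28, CXCL2, CXCL8, CXCL11, CXCL13 and the atypical receptor ACKR2. A further 7 were listed in HepG2 alone (XCL1, CCL22, CXCL14, CCR3, CCR4, CX3CR1 and ACKR4), and 14 in Huh7 alone (CXCL1, CXCL3, CXCL5, CXCL6, CXCL10, CCL3L1, CCL14, CCL20, CCL27, CX3CL1, CCR1, CCR2, CCR6 and CCR7). The other 37 members stood in neither list. The lists of the 2 cell lines were of similar size, with 4783 genes in HepG2 and 4369 in Huh7, of which 4768 and 4360 were protein-coding. For each comparison the paper reports more differentially expressed mRNAs than the list used here holds.

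**Figure D1:**
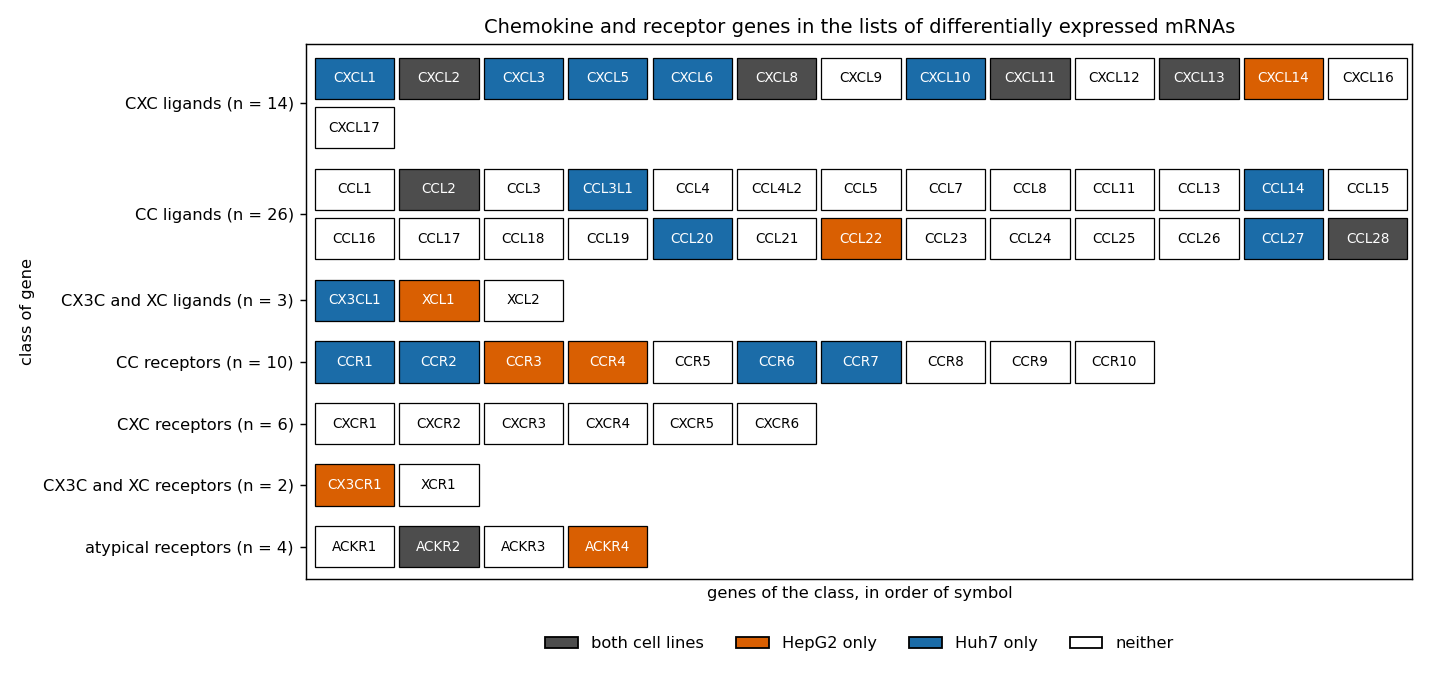
Each box is 1 of the 65 genes, in rows by class of gene and ordered by symbol from left to right, and its colour gives the cell line in which the gene was listed as differentially expressed. CXC ligands are mostly filled in blue (Huh7 only) or grey (both cell lines), and none of the 6 CXC receptors is filled.

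More ligands were listed in Huh7 than in HepG2, while the number of receptors was equal. Of the 43 ligands, 9 (20.9%) were listed in HepG2 and 16 (37.2%) in Huh7, with 6 in both and 24 in neither. Of the 22 receptors, 5 (22.7%) were listed in HepG2 and 5 (22.7%) in Huh7, and ACKR2 was the 1 receptor in both lists. Among the CXC ligands, 5 of 14 (35.7%) were listed in HepG2 and 9 of 14 (64.3%) in Huh7. Among the CC ligands, 3 of 26 (11.5%) were listed in HepG2 and 6 of 26 (23.1%) in Huh7. The shares over all protein-coding genes were 23.9% in HepG2 and 21.9% in Huh7. Both receptor shares, the HepG2 ligand share and the Huh7 CC ligand share lay close to these.

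**Figure D2:**
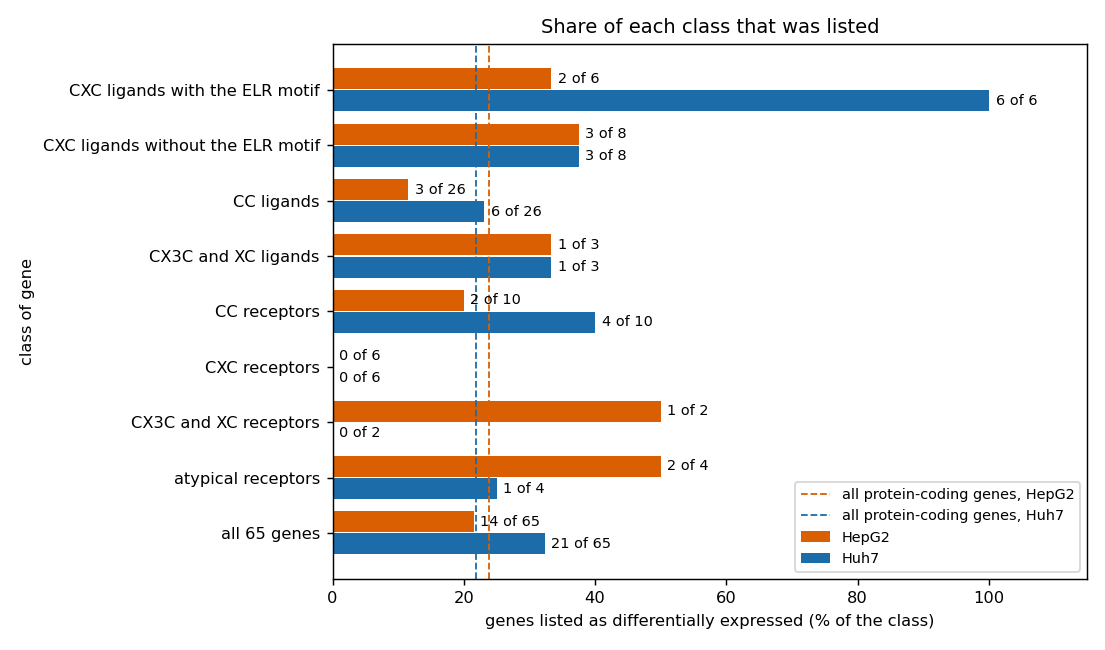
Horizontal bars give the percentage of each class of genes that was listed, in HepG2 (orange) and Huh7 (blue), with the number of genes beside each bar; dashed lines mark the shares of all protein-coding genes, 23.9% and 21.9%. The Huh7 bar of the CXC ligands with the ELR motif reaches 100%, while the 2 bars of the CXC ligands without it are equal.

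The CXC ligands with the ELR motif, a run of glutamate, leucine and arginine just before the first cysteine, attract neutrophils through CXCR2 and, for some of them, CXCR1. This group has 6 members here, CXCL1 (ENSG00000163739), CXCL2 (ENSG00000081041), CXCL3 (ENSG00000163734), CXCL5 (ENSG00000163735), CXCL6 (ENSG00000124875) and CXCL8 (ENSG00000169429), which encodes interleukin-8. In Huh7 all 6 were listed. In HepG2, CXCL2 and CXCL8 were listed and the other 4 were not. PPBP, the platelet basic protein gene, also encodes an ELR ligand but falls outside the symbol rule and was listed in neither cell line, so that with it 6 of 7 were listed in Huh7 and 2 of 7 in HepG2. Neither CXCR1 nor CXCR2 was listed in either cell line. The CXC ligands without the motif were listed in equal number, 3 of 8 in each cell line. These were CXCL11, CXCL13 and CXCL14 in HepG2 and CXCL10, CXCL11 and CXCL13 in Huh7. For comparison, 23.9% of all protein-coding genes were listed in HepG2 and 21.9% in Huh7.

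The promoters of these ligands are shown because the 6 ELR ligands of the rule, with CXCL10 and CXCL11, had a short motif in common that the rule did not use. The RefSeq promoter table (GRCh38.p14, 250 bases before to 50 after each transcription start) held 44 of the 65 members. Each line gives the 120 bases before the start, 5′ to 3′ on the strand of the gene, and capitals mark a match to GGAATTTCC on either strand, the letters of a binding motif of NF-kB, called the kB core below. PPBP, the ELR ligand of the same neighbourhood that was listed in neither cell line, is shown for comparison and has no match in these bases.
CXCL1 (chr4:73869273-73869392, plus strand): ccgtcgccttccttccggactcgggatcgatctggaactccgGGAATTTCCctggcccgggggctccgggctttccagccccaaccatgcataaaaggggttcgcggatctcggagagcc
CXCL2 (chr4:74099196-74099315, minus strand): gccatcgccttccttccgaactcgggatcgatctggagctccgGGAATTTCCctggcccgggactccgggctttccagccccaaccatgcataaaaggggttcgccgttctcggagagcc
CXCL3 (chr4:74038690-74038809, minus strand): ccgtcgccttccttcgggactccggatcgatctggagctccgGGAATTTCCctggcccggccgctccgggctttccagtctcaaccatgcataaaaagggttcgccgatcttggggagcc
CXCL5 (chr4:73998678-73998797, minus strand): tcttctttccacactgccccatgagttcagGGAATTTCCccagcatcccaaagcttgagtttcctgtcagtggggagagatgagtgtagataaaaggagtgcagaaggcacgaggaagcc
CXCL6 (chr4:73836558-73836677, plus strand): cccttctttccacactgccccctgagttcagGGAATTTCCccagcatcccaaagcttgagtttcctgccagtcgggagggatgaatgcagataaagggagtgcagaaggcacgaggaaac
CXCL8 (chr4:73740449-73740568, plus strand): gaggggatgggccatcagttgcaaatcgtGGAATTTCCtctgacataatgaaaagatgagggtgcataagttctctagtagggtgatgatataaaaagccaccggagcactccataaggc
CXCL11 (chr4:76036071-76036190, minus strand): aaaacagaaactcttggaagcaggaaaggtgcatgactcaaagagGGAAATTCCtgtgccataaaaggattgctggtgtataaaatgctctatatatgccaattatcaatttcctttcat
PPBP (chr4:73988191-73988310, minus strand): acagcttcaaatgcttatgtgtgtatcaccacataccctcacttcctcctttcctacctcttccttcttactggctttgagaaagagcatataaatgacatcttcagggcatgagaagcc

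The kB core began 78 bases before the start in CXCL1 and CXCL3, 77 in CXCL2, 90 in CXCL5, 89 in CXCL6 and 91 in CXCL8. In CXCL11 it lay 75 bases before the start, on the opposite strand, and is read above as GGAAATTCC. CXCL10 held it 176 bases before the start, outside the 120 bases that were printed for the others. The motif was present in 162 of all 35116 promoters of the table (0.461%) and in 8 of the 44 members with a promoter (18.2%), which were CXCL1, CXCL2, CXCL3, CXCL5, CXCL6, CXCL8, CXCL10 and CXCL11. Counted by gene, 0.55% of the 14896 protein-coding genes with a promoter in the table held it. All 8 members were listed in Huh7, where 15 listed members had a promoter in the table, and the other 7 of these did not hold it. In HepG2, 3 of the 10 listed members with a promoter held it (CXCL2, CXCL8 and CXCL11), and so did 0 of the 24 members that stood in neither list.

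These 8 promoters are not independent of each other. The printed stretches of CXCL1 and CXCL2 were 93.4% identical, those of CXCL1 and CXCL3 90.8%, those of CXCL2 and CXCL3 88.4% and those of CXCL5 and CXCL6 90.9%. All other pairs among the 6 ELR ligands lay between 43.6% and 52.7%. The letters of the motif were also chosen after the promoters had been seen. The motif was also looked up outside the family. Of 74 other protein-coding genes with the kB core in a promoter, 20 (27%) were listed in HepG2 and 19 (25.7%) in Huh7, beside 23.6% and 21.4% of the 14896 protein-coding genes with a promoter in the table.

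Other motifs were found in listed and unlisted members. The looser form GGGNNNNNCC, which overlaps many of the kB core matches, was found on either strand in 58.7% of all promoters, in 73.3% of the protein-coding genes with a promoter and in 26 of 44 members (59.1%). It stood in 8 of the 10 members listed in HepG2, 12 of the 15 listed in Huh7 and 11 of the 24 in neither list. TTTCNNTTTC, a motif of interferon response elements, stood in 3.57% of all promoters and, by gene, in 4.22% of the protein-coding genes with a promoter. It stood in 4 of 44 members (9.09%), of which CXCL10 and CCR6 were listed in Huh7 and CXCL9 and XCR1 in neither cell line. TGANTCA, the motif of the AP-1 factors, stood in 7.71% of all promoters and, by gene, in 8.15% of the protein-coding genes with a promoter. It stood in 9 of 44 members (20.5%). CXCL8, CXCL11, CXCL14, CCL27 and CCR2 of these were listed, and CCL7, CCL24, CXCL17 and CXCR6 were listed in neither cell line. A match is a description of the letters and does not show that a factor bound there. The listed members with no promoter in the table were ACKR2, ACKR4, CCL2, CCL3L1, CCL14, CCR7, CX3CL1 and XCL1.

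**Figure D3:**
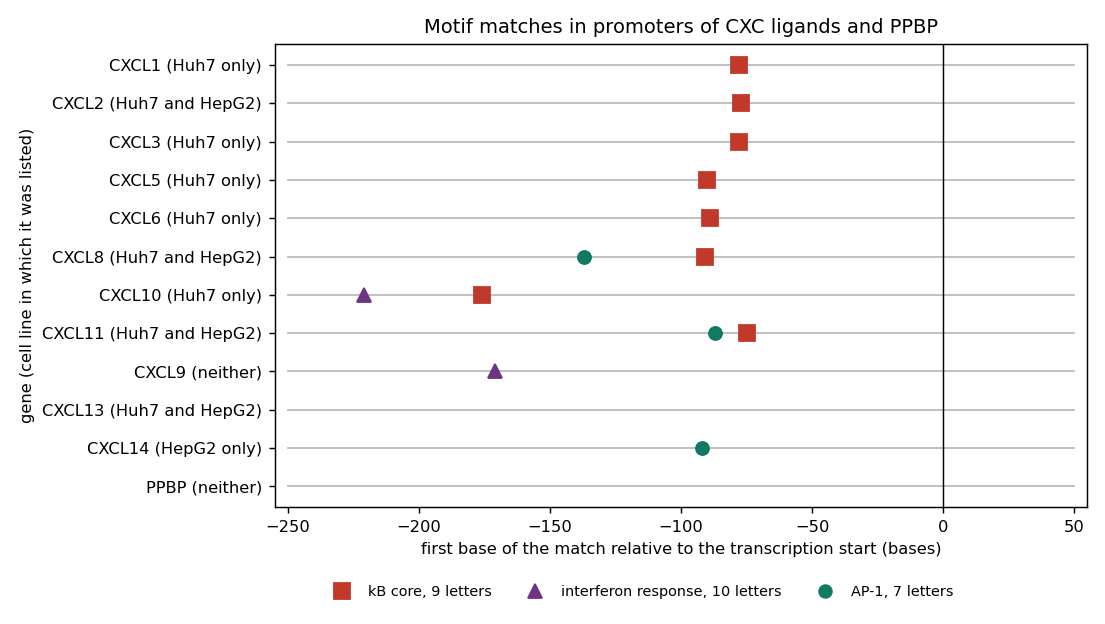
Each grey line is the promoter of 1 gene, and symbols give the first base of a motif match in bases relative to the transcription start, negative before it, for the kB core, the interferon response motif and the AP-1 motif. The red squares of the 6 ELR ligands and CXCL11 lie between 75 and 91 bases before the start, and that of CXCL10 at 176.

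The ELR ligands are also neighbours. Along the chromosome, 9 chemokine family genes follow each other from CXCL8 to CXCL2 with 0 other protein-coding genes between them, in the order CXCL8, CXCL6, PF4V1, CXCL1, PF4, PPBP, CXCL5, CXCL3 and CXCL2. PF4V1, PF4 and PPBP belong to the chemokine family but their symbols fall outside the rule. In Huh7, 7 of the 9 were listed, with PF4V1 and PPBP as the exceptions. In HepG2, 2 of the 9 were listed, CXCL8 and CXCL2. Over all protein-coding genes the shares were 23.9% in HepG2 and 21.9% in Huh7, so the HepG2 count was near the general share. The neighbouring trio CXCL9, CXCL10 and CXCL11, whose products are induced by interferon and act on CXCR3 of T cells, had CXCL11 listed in both cell lines, CXCL10 in Huh7 alone and CXCL9 in neither.

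**Figure D4:**
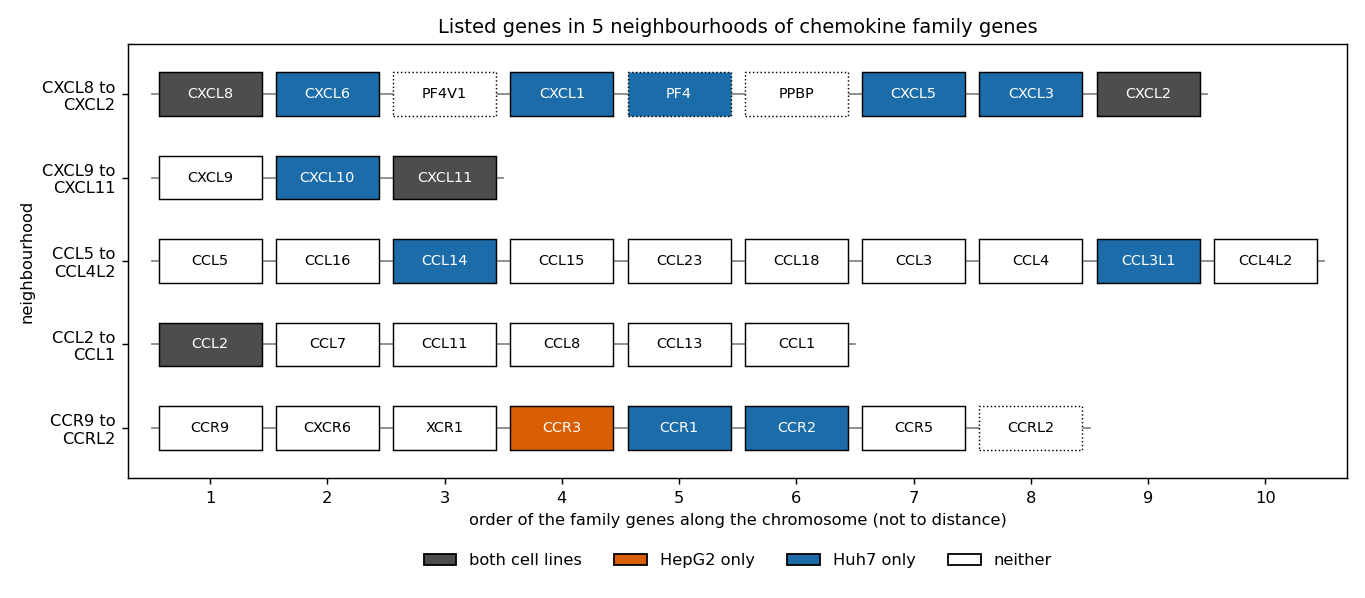
Boxes are chemokine family genes in their order along the chromosome, with 1 neighbourhood a row and no scale of distance; colour gives the cell line in which a gene was listed, and a dotted outline marks a family gene outside the symbol rule. In the top row 7 of 9 boxes were listed in Huh7 and 2 of 9 in HepG2, and the CCL2 row has 1 listed gene of 6. The shares over all protein-coding genes were 23.9% in HepG2 and 21.9% in Huh7.

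The CC ligands showed no such run. CCL2 (ENSG00000108691), the monocyte attractant that acts on CCR2, was listed in both cell lines, but its 5 neighbours CCL7, CCL11, CCL8, CCL13 and CCL1 were listed in neither. In the neighbourhood of 10 genes from CCL5 to CCL4L2, 0 were listed in HepG2 and 2 in Huh7, CCL14 and CCL3L1. Across all protein-coding genes, 23.9% were listed in HepG2 and 21.9% in Huh7, so little can be read from counts this small. CCL28 (ENSG00000151882), a mucosal epithelial chemokine that acts on CCR10, was listed in both. CCL20, the ligand of CCR6, and CCL27, a chemokine of skin epithelium that acts on CCR10, were listed in Huh7 alone. CCL22, which attracts CCR4-bearing T cells, was listed in HepG2 alone. The XC ligand XCL1, known as lymphotactin, was listed in HepG2 and the membrane-bound ligand CX3CL1, known as fractalkine, in Huh7.

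The ligands were also counted by the setting in which they are known to be made. Of 22 ligands grouped as inflammatory, 4 (18.2%) were listed in HepG2, CCL2, CXCL2, CXCL8 and CXCL11, and all 4 were listed in Huh7 too. In Huh7, 11 of the 22 (50%) were listed, the further 7 being CCL20, CXCL1, CXCL3, CXCL5, CXCL6, CXCL10 and CX3CL1. Of all protein-coding genes, 23.9% were listed in HepG2 and 21.9% in Huh7. The 22 include the 6 ELR ligands described above, so the inflammatory counts are not separate from theirs. Of 8 homeostatic ligands, 3 (37.5%) were listed in each cell line, with CCL28 and CXCL13 shared, CXCL14 in HepG2 alone and CCL27 in Huh7 alone. CXCL12, CCL19, CCL21 and CCL25 were listed in neither. The other 13 ligands were placed in neither group, among them the listed CCL22 and XCL1 of HepG2 and CCL14 and CCL3L1 of Huh7.

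The 2 cell lines had the same number of listed receptors. HepG2 had CCR3, the eotaxin receptor of eosinophils, CCR4 of helper T cells, CX3CR1, the fractalkine receptor of monocytes, and the atypical receptors ACKR2 and ACKR4. Huh7 had CCR1 and CCR2, receptors of monocytes, CCR6, CCR7, the lymph node homing receptor, and ACKR2 (ENSG00000144648), which scavenges inflammatory CC chemokines. The CC receptors numbered 2 of 10 in HepG2 and 4 of 10 in Huh7, beside 23.9% and 21.9% of all protein-coding genes. They had 0 in common, but with so few genes, and with only 47.7% and 52.2% of the whole lists shared, little can be read from this. None of the 6 CXC receptors was listed in either cell line, CXCR4 and the 2 receptors of the ELR ligands included. CCR3, CCR1 and CCR2 are adjacent family genes in the neighbourhood from CCR9 to CCRL2, of which 1 of 8 was listed in HepG2 and 2 of 8 in Huh7.

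Most of these receptors are best known from leukocytes, so markers of leukocytes were looked up in the same lists. Of 20 leukocyte markers, 10 (50%) were listed in HepG2 and 7 (35%) in Huh7, beside 23.9% and 21.9% of all protein-coding genes. PTPRC, the gene of the pan-leukocyte antigen CD45, CD4, CD14, ITGAM, LYZ, S100A9 and CD68 were listed in both, and MS4A1, ITGAX and CSF1R in HepG2 alone. The T cell markers CD3E, CD3D and CD8A, and NKG7 and MPO, were listed in neither. Of 10 hepatocyte markers, 5 were listed in HepG2 and 7 in Huh7, with ALB, AFP, HNF4A and CEBPA in both. The lists do not give the level of any marker, so the labels of the cell lines could not be checked against them, and the part of these genes in the receptor counts was not tested.

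Ligands and receptors were then matched by a list of known pairs. Among its 51 pairs, both genes were listed for 1 pair in HepG2, CCR4 with CCL22, and for 3 pairs in Huh7, CCR1 with CCL14, CCR2 with CCL2 and CCR6 with CCL20. The ligand alone was listed in 9 pairs in HepG2 and 15 in Huh7, and the receptor alone in 11 pairs in each. Of all ligands, 20.9% were listed in HepG2 and 37.2% in Huh7, and of all receptors 22.7% in each. A receptor with several ligands entered several pairs, such as CCR3 in HepG2 and CCR1 in Huh7, so the pairs are not independent. Whether the pair counts exceed what these shares would give was not tested. The list of pairs was not complete. It held no pair of ACKR2, which was listed in both cell lines along with CCL2, nor CCR3 with CCL28, both listed in HepG2, nor CCR1 with CCL3L1, both listed in Huh7. CX3CL1 and its receptor CX3CR1 were split between the cell lines, the ligand being listed in Huh7 and the receptor in HepG2.

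The GO term leukocyte chemotaxis holds 248 background genes. In HepG2, 60 of them (24.2%) were listed, 8 of which were members of the family. In Huh7, 81 (32.7%) were listed, 18 of which were members. Of all 19951 protein-coding genes, 23.9% were listed in HepG2 and 21.9% in Huh7. The whole GO background is a different denominator: it held 22148 genes, of which 4783 were listed in HepG2 and 4369 in Huh7. Counted over that background, the general shares are lower. Any protein-coding gene with no GO term counts among the 19951 but could not be listed. The share over protein-coding genes with a GO term was not computed, and it cannot be lower than the share over all 19951. The 2 lists shared 41 genes under this term, 68.3% of those of HepG2 and 50.6% of those of Huh7, beside 47.7% and 52.2% of the whole protein-coding lists. Of the genes under this term listed in Huh7 alone, 13 were members and 27 were not, and of those listed in HepG2 alone, 3 were members and 16 were not. The term did not hold every listed member: ACKR2, ACKR4, CCL28, CCR3, CCR4 and CX3CR1 of HepG2, and ACKR2, CCL27 and CCL28 of Huh7, stood under other terms. All listed members stood under the wider term cell chemotaxis, with 83 of 330 genes (25.2%) listed in HepG2 and 101 (30.6%) in Huh7.

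The narrower terms name the type of leukocyte but share many members, such as CCL2, which stood under neutrophil, lymphocyte and monocyte chemotaxis in both cell lines. Under neutrophil chemotaxis, 30 of 118 genes (25.4%) were listed in HepG2, 7 of them members, and 41 (34.7%) in Huh7, 15 of them members. Under lymphocyte chemotaxis, 14 of 78 (17.9%) were listed in HepG2 and 21 (26.9%) in Huh7, and under monocyte chemotaxis the numbers were close, 15 of 86 (17.4%) and 16 (18.6%). Of all protein-coding genes, 23.9% were listed in HepG2 and 21.9% in Huh7. Both monocyte shares and the HepG2 lymphocyte share lay below these general shares. Under chemokine activity, 9 of 65 genes (13.8%) were listed in HepG2, all of them members, and 19 (29.2%) in Huh7, where 16 members were joined by C5, CKLF and PF4. The 65 background genes of this term are not the 65 genes of the rule, and they exceed the 43 ligands, so these shares and those of the ligands have different denominators. Under chemokine receptor activity, 7 of 26 (26.9%) were listed in HepG2 and 6 (23.1%) in Huh7. Under chemokine production, which holds regulators rather than chemokines, 31 of 89 genes (34.8%) were listed in HepG2 and 25 (28.1%) in Huh7, and CXCL6 in Huh7 was the 1 member among them.

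**Figure D5:**
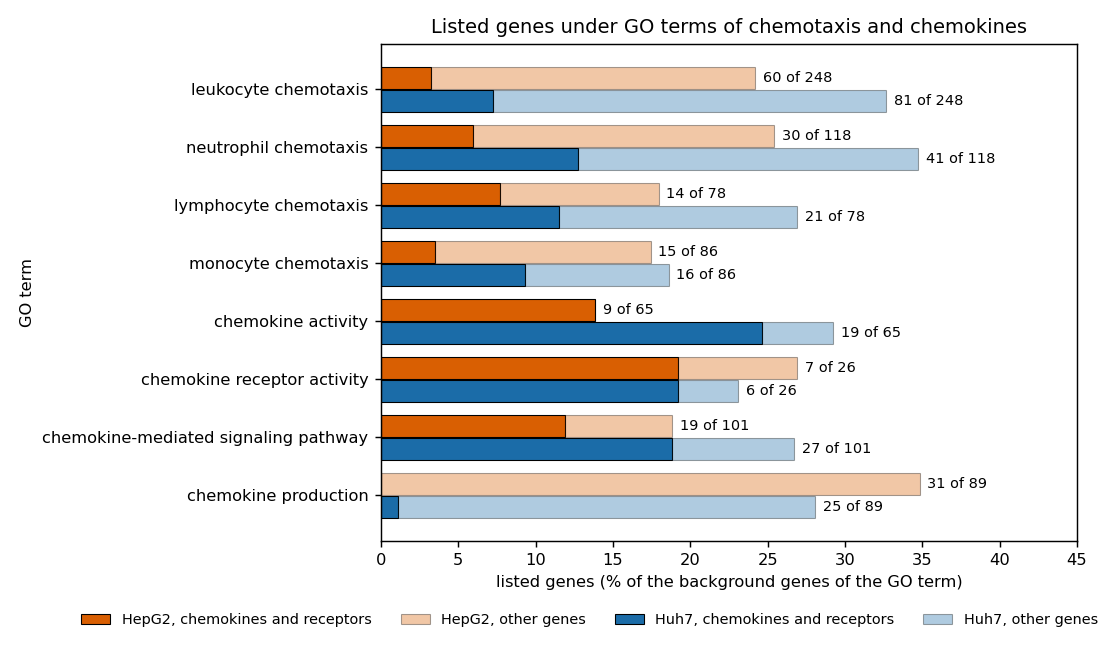
Bars give the percentage of the background genes of each GO term that was listed, in HepG2 (orange) and Huh7 (blue), split into members of the chemokine family (dark) and other genes (pale), with the numbers of genes beside each bar. Leukocyte chemotaxis stands at 60 of 248 genes in HepG2 and 81 of 248 in Huh7. The HepG2 bar is the longer for chemokine receptor activity and for chemokine production, and the bars of chemokine production have almost no dark part.

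The KEGG tables sort the lists by another annotation. Of the 189 background genes of the Chemokine signaling pathway, 44 (23.3%) were listed in HepG2 and 45 (23.8%) in Huh7. These near-equal totals were made up differently, with 12 members and 32 other genes in HepG2 and 20 members and 25 other genes in Huh7. Both lists held 19 of the genes, 6 members and 13 others, among them PIK3CG, DOCK2, VAV1, VAV3 and PLCB2. Of the 265 background genes of Cytokine-cytokine receptor interaction, 78 (29.4%) were listed in HepG2 and 93 (35.1%) in Huh7, again with 12 and 20 members. Of all protein-coding genes, 23.9% were listed in HepG2 and 21.9% in Huh7, close to the shares of the Chemokine signaling pathway. ACKR2 and ACKR4 stood under no KEGG pathway.

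The genes that carry the signal inside the cell were looked up beyond the family. Of 50 genes that act downstream of chemokine receptors, 18 (36%) were listed in HepG2 and 13 (26%) in Huh7, with 9 in both, beside 23.9% and 21.9% of all protein-coding genes. The shared genes included PIK3CG, the PI 3-kinase subunit driven by G protein-coupled receptors, DOCK2 and VAV1, exchange factors for Rac, and RGS3, RGS16 and RGS18, which shorten G protein signals. GRK3, a receptor kinase, PLCB1, ELMO1 and RGS2 were listed in HepG2 alone, and GNG2, PIK3R6, RGS13 and RGS14 in Huh7 alone. The Gi subunits GNAI1, GNAI2 and GNAI3 were listed in neither.

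Of 24 genes of chemokine induction by NF-kB and interferon, 6 (25%) were listed in HepG2 and 7 (29.2%) in Huh7, beside 23.9% and 21.9% of all protein-coding genes. RELB, an NF-kB subunit, the cytokines IL1A and IL6, and IRF7, an interferon regulatory factor, were listed in both. NFKBIA, the inhibitor of NF-kB, and IRF1 were listed in HepG2 alone. NFKB2 and IKBKG, a subunit of the kinase complex that releases NF-kB, were among those listed in Huh7 alone. RELA, NFKB1, TNF, IL1B and IFNG were listed in neither. Of 15 proteases that trim or shed chemokines, 5 (33.3%) were listed in HepG2 and 7 (46.7%) in Huh7, beside the same general shares, with MMP1, MMP7 and MMP14 in both, and with ADAM10, which sheds CX3CL1 and CXCL16, and DPP4, which trims CXCL10 among others, in Huh7 alone.

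Gene length and shared sequence can bear on such calls. Listed ligands had a median longest transcript of 1367 bases (n = 19), beside 928.5 bases for the ligands in neither list (n = 24) and 2933 bases for all protein-coding genes. For the receptors these medians were 2731 bases (n = 9) and 2488 bases (n = 13). The part of length in the calls was not tested. Among the ELR ligands, 5.73% of the stretches of 50 bases in CXCL1 transcripts also occurred in transcripts of other genes, and the share was 9.24% for CXCL2, 5.26% for CXCL3, 1.12% for CXCL5 and 0 for CXCL6 and CXCL8. The share was larger for CCL27 (86.4%), CCR6 (68.2%), ACKR4 (38.7%), XCL1 (18.1%, with XCL2), CCL14 (15.5%, with CCL15-CCL14) and CCL3L1 (9.8%, with CCL3). Reads from these stretches could be counted for either gene, and their part in the calls was not tested. CCR1 and CCR3 overlap on opposite strands, as do CXCL10 and CXCL11 with ART3, CCL27 with IL11RA and CXCL14 with SLC25A48, and whether the counting used strand is not given in the sources used here.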

How the data were processed

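Total RNA of 4 libraries, 1 per group, was sequenced after depletion of ribosomal RNA with a kit that keeps strand. The submitters' processing notes name HISAT2, Bowtie2 2.2.8, StringTie 1.3.1 and Cuffdiff 2.1.1. The genome build, the annotation and the library depths are not given in the sources used here. Differential expression of mRNAs was decided by the authors from an adjusted p-value (limit 0.05), and the study's methods name Cuffdiff for this step while its results name another tool, so which one made the lists is not settled. The authors tested GO terms with GOseq and KEGG pathways with KOBAS. The deposited tables give, for each term, a p-value with its correction, both from the authors, which were not used or printed here, and the numbers of listed and background genes, which count genes and not reads.

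For either comparison, identifiers were pooled over 14390 GO terms (HepG2) and 13760 (Huh7), and the resulting list sizes, 4783 and 4369, equalled the totals the tables state. A gene with no GO term could not enter. Symbols, gene types, order and transcript lengths came from GENCODE release 29 by identifier, and promoters from RefSeq (GRCh38.p14) by symbol. Each listed member is named, and genes of the other lists where listed. Members, gene lists, pairs and motifs were chosen with earlier results of these data known. Neighbours were family genes at most 6 places apart in the order of protein-coding genes along the chromosome. Identity was taken from a global alignment with gaps counted as differences. The motif search was tested on simulated sequences. No statistical test was run, since no group has a replicate. The alternatives were KEGG in place of GO, either annotation, 4 further family genes, and near-identical genes left out. Python 3.11.15, pandas 2.3.3 and Biopython 1.88 were used.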

Additional observations from a re-analysis of the deposited data

How the results depend on the processing

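The 7 counts of members, ligands and receptors listed in HepG2, in Huh7 and, for all members, in both were recomputed under 4 alternatives, and 27 of the 28 values stayed within 1.5 times the reported count. The exception was the number of receptors listed in HepG2, which went from 5 to 3 when KEGG pathways replaced GO terms, because ACKR2 and ACKR4 stood under no KEGG pathway. With KEGG pathways the members listed numbered 12 in HepG2 and 20 in Huh7. Adding PF4, PF4V1, PPBP and CCRL2 raised the Huh7 count to 22 of 69 and left the HepG2 count at 14. Leaving out CCL3, CCL3L1, XCL1 and XCL2, whose translated coding sequences are at least 90% identical in pairs, gave 13 and 20 of 61. All 4 alternatives re-sort the same calls or change few genes, so most could hardly pass the limit of 1.5 times. They do not bear on the calls themselves. The alternative limited to members with an entry in a reference protein table was not run. No paired analysis was possible because each group has 1 library. For the same reason no library could be left out, and a count of listed genes has no replicate error. Depth limits how many low genes could be called, and it was not used here.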

Other observations

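The GO term leukocyte chemotaxis also holds genes that are not chemokines or chemokine receptors. Of those listed, 36 were listed in both cell lines, 16 in HepG2 alone and 27 in Huh7 alone. The shared genes included IL6 and its receptor gene IL6R, the endothelin genes EDN1 and EDN2, the growth factor genes VEGFA, VEGFC and TGFB2, S100A9 and RARRES2, which encodes the attractant chemerin. HMGB1, a nuclear protein that attracts leukocytes when dying cells release it, LGALS9, S1PR1, SLIT2 and WNT5A were listed in HepG2 alone. C5, a complement component, CKLF, PF4, THBS1, PDGFB and ADAM8 were listed in Huh7 alone.

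Of 30 other chemoattractants and their receptors, 9 (30%) were listed in HepG2 and 7 (23.3%) in Huh7, with 6 in both. Of all protein-coding genes, 23.9% were listed in HepG2, 21.9% in Huh7 and 11.4% in both, so the Huh7 share was close to the general one. The shared genes were RARRES2, LTB4R, a receptor of leukotriene B4, PTGDR2, a receptor of prostaglandin D2, GPR183, which follows oxysterols, IL16 and VEGFA. GPR1, C5AR2 and S1PR1 were listed in HepG2 alone and CKLF in Huh7 alone. The formyl peptide receptor genes FPR1, FPR2 and FPR3 were listed in neither.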
